A study of Mus musculus with 18 samples.

Results

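The glucocorticoid receptor gene Nr3c1 and 8 genes that the receptor is known to induce in other cells (Fkbp5, Tsc22d3, Per1, Zfp36, Zfp36l1, Zfp36l2, Dusp1 and Sgk1) were followed through mouse erythroid progenitors. They were taken by gene symbol from the count tables, and peaks annotated to those symbols were taken from the lists of accessible chromatin. All 9 genes were found, among 24072 genes in the table of spleen libraries and 10702 in the table of both burst-forming populations, with 66 of 61661 peaks in stress spleen cells and 43 of 35142 in bone marrow (BM) cells. RNA was sequenced in 3 libraries each of stress spleen multipotent progenitors (MPP), stress spleen burst-forming erythroid progenitors (BFU-E), stress spleen colony-forming erythroid progenitors (CFU-E) and BM BFU-E. Transposase-accessible chromatin (ATAC-seq) was profiled in 3 libraries each of stress spleen BFU-E and BM BFU-E and deposited as 1 merged peak list per population. The spleen cells came from mice at day 8 after lethal irradiation and a transplant of unfractionated marrow, and the BM BFU-E from mice at steady state. Every group carried the B6SJL strain background and was depleted of lineage-positive cells before flow sorting. The 2 BFU-E populations differ at once in tissue, in irradiation with transplantation, and in the streptavidin fluorophore of the sort, so these cannot be told apart. Nothing in the labels ties the libraries to separate animals, so p-values measure the spread between these libraries, which may be technical.

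The glucocorticoid receptor waits in the cytoplasm in a complex with HSP90 and its co-chaperones, enters the nucleus on binding cortisol or corticosterone, and binds paired half-sites in DNA as a dimer. Fkbp5 and Tsc22d3 are among its best known direct targets, and FKBP5 lowers the receptor's affinity for hormone, which closes a negative feedback loop. In erythropoiesis, glucocorticoids hold BFU-E in self-renewal, the receptor is needed for the stress response of the spleen, and Zfp36l2 has been described as a target through which BFU-E self-renewal is maintained. Whether hormone was present at a given level was not measured here, and RNA levels do not report receptor activity.

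Total counts per library ran from 5937778 to 13197159 in the spleen table, and in the BFU-E table from 10555143 to 12926718 in stress spleen and from 6758871 to 9463498 in BM. Summed erythroid markers, in CPM (each count as a share of its library, corrected for library composition by TMM factors), ran from 168 to 228 in MPP, from 298 to 342 in stress spleen BFU-E and from 1930 to 1980 in CFU-E, and summed stem cell markers from 386 to 491, 103 to 124 and 20.6 to 24.1 CPM in the same order. Other classes did not run in stage order: megakaryocyte markers were at 959 to 1110 in MPP, 1730 to 2000 in stress spleen BFU-E and 77.6 to 88.5 CPM in CFU-E, and myeloid markers at 125 to 560, 684 to 812 and 24.9 to 85.6 CPM. Among the genes of the BFU-E table, 0.420% to 0.738% had no count in the stress spleen libraries, against 5.81%, 1.53% and 15.3% in BM libraries 1, 2 and 3. The summed macrophage markers Csf1r, Adgre1 and Cd68, which are the 3 of 9 listed that this table holds, ran from 11.9 to 19.8 CPM in stress spleen BFU-E and from 91.1 to 168 CPM in BM BFU-E. Stem cell markers (6 of 8 listed) were at 104 to 125 CPM in stress spleen BFU-E and 255 to 359 CPM in BM BFU-E, and erythroid markers (7 of 10 listed) at 299 to 345 CPM in stress spleen and 160 to 274 CPM in BM, without overlap. The part of these differences in the values below was not tested. The BM columns also differ between the deposited tables of RPKM (read counts scaled to transcript length and to library size). For BM, the counts divided by length correlated at 0.997 to 0.998 with the table of 6 libraries and at 0.510 to 0.651 with the table of 12 libraries (Pearson's r on a log2 scale with 1 added, over 8861 genes of each library, a description only), so BM levels below come from the counts or from the table of 6.

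Before the values, the letters around 4 matches to a glucocorticoid response element are shown, because the positions of these elements relative to open chromatin are described beside each gene. The Per1, Tsc22d3 and Fkbp5 sites are the matches within a peak annotated to a member. The Sgk1 site is the 1 match in the promoters of members that were searched. A Dusp1 match that is not shown lay nearer to a stress spleen peak than the Sgk1 site. The search looked for the half-sites GNACA and TGTNC with 3 bases between them (N is any base), a pattern that reads the same on both strands. Capitals mark the 13 matched bases, each run is the plus strand 5′ to 3′ of mm10 (GRCm38.p6), and 30 bases stand on each side. The Per1 and Tsc22d3 sites lie in peaks of both populations, the Fkbp5 site lies within the BM peak alone, and the Sgk1 site lies in no peak of either list.
Per1, chr11:69097047-69097119: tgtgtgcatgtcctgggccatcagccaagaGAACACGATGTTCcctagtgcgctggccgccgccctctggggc
Tsc22d3, chrX:140505936-140506008: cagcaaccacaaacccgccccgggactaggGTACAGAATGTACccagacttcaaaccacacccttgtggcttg
Fkbp5, chr17:28484923-28484995: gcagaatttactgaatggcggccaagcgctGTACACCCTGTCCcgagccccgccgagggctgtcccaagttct
Sgk1, chr10:21993672-21993744: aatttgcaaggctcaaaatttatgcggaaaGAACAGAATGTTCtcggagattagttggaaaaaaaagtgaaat
The stretch at Per1 is the element described for glucocorticoid induction of mouse Per1, and a response element upstream of Sgk1 is long known in the rat. A match is a description of letters, not evidence that the receptor was bound.

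Nr3c1, which encodes the receptor itself (mm10 chromosome 18, 39410545 to 39487245, minus strand), was the member with the largest called differences between stages. It measured 123, 139 and 113 CPM in MPP libraries 1, 2 and 3, then 133, 119 and 135 CPM in stress spleen BFU-E, and 261, 184 and 233 CPM in CFU-E. Every CFU-E library lay above every library of the earlier stages, while MPP and BFU-E overlapped. In the fit over the 9 spleen libraries, Nr3c1 was higher in CFU-E than in BFU-E by 0.81 on the log2 scale (SE 0.13, 95% interval 0.53 to 1.09, edgeR quasi-likelihood test with Benjamini-Hochberg adjustment over all genes, adjusted p = 0.000131). It was also higher in CFU-E than in MPP by 0.86 (SE 0.14, edgeR adjusted p = 5.27e-05), and the difference between BFU-E and MPP was 0.05 (SE 0.13, 95% interval −0.23 to 0.33). Of all genes tested, 21.1% were called between CFU-E and BFU-E and 28.8% between CFU-E and MPP at an adjusted p under 0.05, where 9.17% were higher in CFU-E than in BFU-E. Of the 9 members, 1 was called between CFU-E and BFU-E and 3 had groups that did not overlap, beside 37.5% of all genes. In sorted bulk samples, fewer cells of a type and less RNA per cell cannot be told apart, and a CPM level is relative to the rest of the transcriptome.

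Between the BFU-E populations Nr3c1 measured 134, 121 and 138 CPM in stress spleen, against 198, 144 and 141 CPM in BM. The stress spleen libraries all lay below the BM libraries, by a narrow margin for BM libraries 2 and 3. The log2 fold change was −0.29 (SE 0.20, 95% interval −0.77 to 0.18, edgeR adjusted p = 0.71), which did not pass the test. Of the 10702 genes compared here, 21.9% had groups that did not overlap and 0.112% were called, 0.00934% as higher and 0.103% as lower. Nr3c1 was the 1 member of 9 whose groups were apart.

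**Figure D1:**
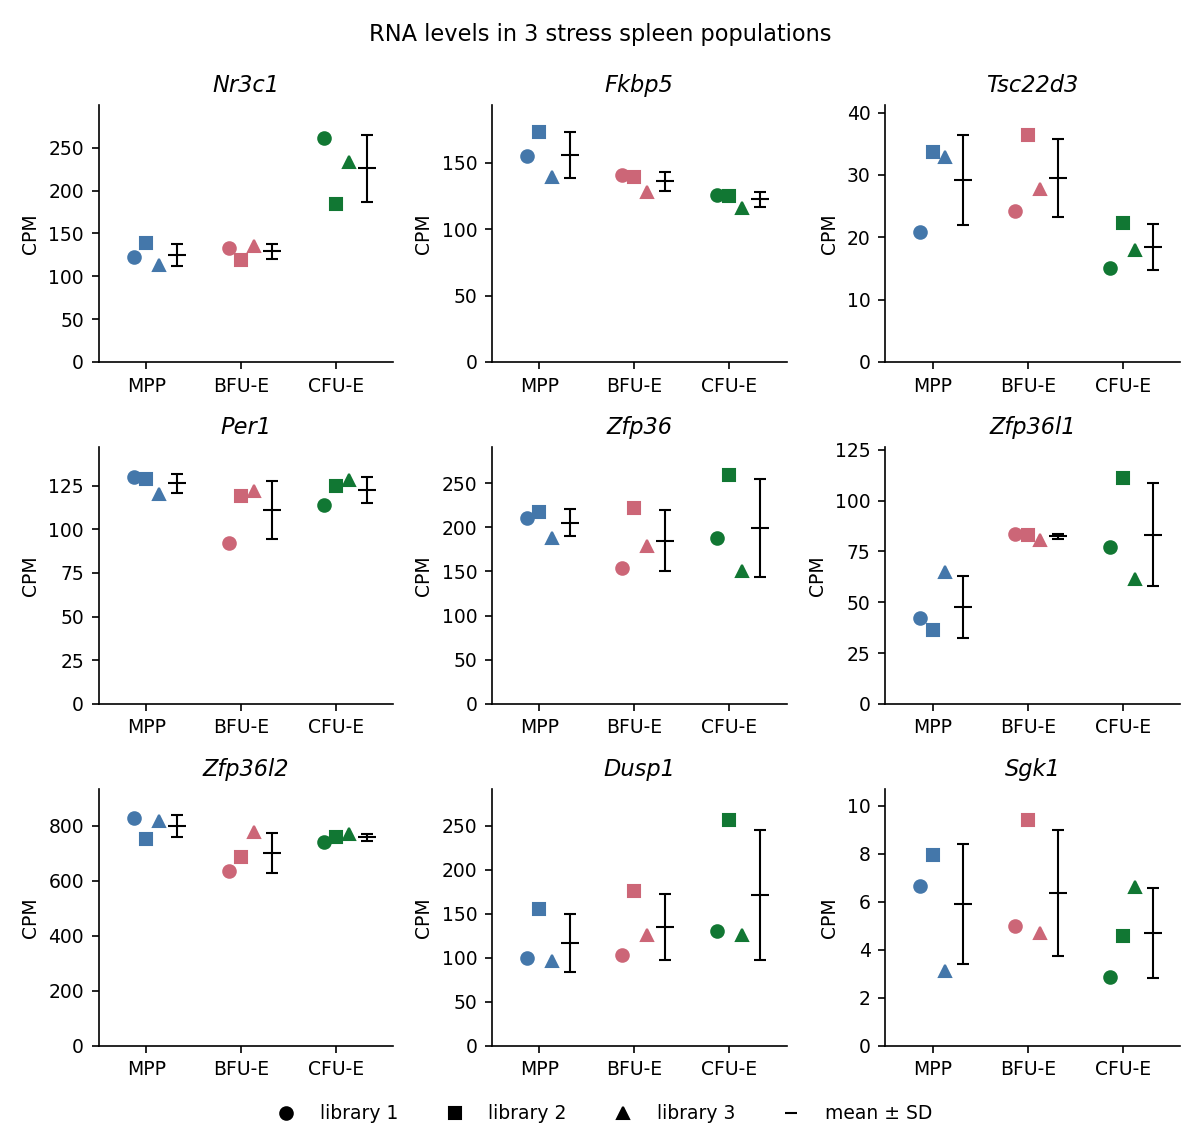
CPM of each of the 9 genes in 3 libraries each of MPP, BFU-E and CFU-E from stress spleen, with marker shape for the library number and the mean ± SD at the right of each group; each panel has its own axis from 0. Nr3c1 stands apart in CFU-E at 226 ± 38.6 CPM, and Zfp36l1 is lowest in MPP at 47.7 ± 15.2 CPM.

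The 5 genes whose pattern over the 9 spleen libraries was closest to that of Nr3c1 were Mdn1, Ifrd2, Ppid, Txn2 and Heatr1, out of 9725 candidates. Their root mean square differences from it were 0.121, 0.136, 0.140, 0.142 and 0.156 on the log2 scale, where Nr3c1 itself spread around its mean by 0.415. Mdn1 and Heatr1 encode ribosome assembly factors, Ppid encodes a cyclophilin that is itself a co-chaperone of HSP90, and Txn2 encodes mitochondrial thioredoxin.

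Genes that handle the receptor were also counted. Of 12 tested chaperones, co-chaperones and hormone transporters, 7 rose in CFU-E relative to BFU-E, 1 fell and 4 did not pass the test, beside 9.17% of all genes higher and 11.9% lower. Their median log2 fold change was 0.32, against −0.00223 over all genes tested. Hsp90aa1, which encodes the inducible HSP90, was at 892 ± 20.2 CPM in CFU-E and 523 ± 37.8 CPM in BFU-E (SD, n = 3 each; log2 fold change 0.77, edgeR adjusted p = 1.46e-06). Bag1, a co-chaperone that limits receptor function, was at 330 ± 8.55 CPM in CFU-E and 191 ± 8.62 CPM in BFU-E (0.79 on the log2 scale, edgeR adjusted p = 3.17e-05). Abcb1b, an efflux pump that exports glucocorticoids among other substrates, fell to 14.2 ± 3.45 CPM in CFU-E, against 46.8 ± 7.61 CPM in BFU-E (−1.72 on the log2 scale, edgeR adjusted p = 9.96e-06). Between BFU-E and MPP 1 of the 12 passed, Hsp90ab1, which was lower in BFU-E by a log2 fold change of −0.24, beside 2.11% of all genes lower. Between stress spleen and BM BFU-E none of the 12 did.

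Of 17 receptor coregulators, 3 fell and none rose between CFU-E and BFU-E, against the same shares of all genes. Ncoa3, a p160 coactivator, was at 69.3 ± 9.16 CPM in CFU-E and 355 ± 35.4 CPM in BFU-E (−2.36 on the log2 scale with an SE of 0.14, edgeR adjusted p = 4.82e-11). Nrip1, a corepressor of nuclear receptors, changed by −0.42, and Crebbp, a histone acetyltransferase, by −0.32. Between stress spleen and BM BFU-E none of the 17 passed.

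Peaks annotated to Nr3c1 numbered 13 in stress spleen BFU-E and 8 in BM BFU-E. Many lay beyond the 3′ end of the gene, 90.8 to 246 kb downstream of its start, among them every BM peak except the one at −3.05 kb. All 8 BM peaks overlapped a stress spleen peak by at least 1 base, and 5 of the stress spleen peaks had no BM counterpart. The broadest peak in each list was centred at −3.05 kb from the annotated start site (negative is upstream) and spanned 2840 bases in stress spleen and 2869 in BM. Among the 5 peaks in stress spleen alone were introns at 26.3 and 32.2 kb and a site at −9.55 kb, with authors' scores of 866, 721 and 939 on a scale that ends at 1000. The remaining 2 lay at 118 and 211 kb, beyond the 3′ end of the counted Nr3c1 transcript, in introns by HOMER's annotation. No palindrome of the searched form lay within 50 kb of the Nr3c1 start.

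Fkbp5, which encodes the immunophilin FKBP51 (chromosome 17, 28398753 to 28486149, minus strand), ran lower along the stages by small steps. It measured 155, 173 and 139 CPM in MPP, 141, 139 and 128 CPM in stress spleen BFU-E, and 126, 125 and 116 CPM in CFU-E. The CFU-E libraries lay below all the BFU-E and MPP libraries, with BFU-E library 3 only just above them. Groups that did not overlap between CFU-E and MPP were found for 2 of 9 members (Nr3c1 and Fkbp5), beside 40.4% of all genes. The fall of CFU-E relative to MPP, a direction called for 16.0% of all genes, passed the test (−0.35 on the log2 scale with an SE of 0.12, edgeR adjusted p = 0.041), and the steps of −0.15 between CFU-E and BFU-E and −0.19 between BFU-E and MPP did not (edgeR adjusted p = 0.43 and 0.51). Leaving out any 1 of the 3 CFU-E libraries, or MPP library 1 or 2, brought the adjusted p of the called difference to between 0.07 and 0.149, with log2 fold changes of −0.37 to −0.27, and the fits without a filter on low counts (0.0854) and of this pair alone (0.0664) also missed the threshold.

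In the BFU-E pair, Fkbp5 was at 143, 142 and 131 CPM in stress spleen, against 218, 143 and 79.1 CPM in BM. The BM libraries lay on both sides of the tight stress spleen group, whose SD was 6.87 against 69.4 CPM. The log2 fold change was −0.08 (SE 0.34, 95% interval −0.87 to 0.70), an interval with values of both signs, so no direction was resolved with these libraries.

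The promoter of Fkbp5 was open in both lists, with a peak of 1070 bases in stress spleen and 1736 bases in BM. The broader BM peak reached the palindrome shown above, 1.19 kb inside the gene, while the nearest stress spleen peak ended 567 bases from it. This gene held the 1 peak annotated to a member that appeared in BM alone, at −16.2 kb with a score of 604, and 1 in stress spleen alone in an intron at 18 kb with a score of 485. Within 50 kb of its start, 9 palindromes were found, more than around any other member, of which 2 lay in stress spleen peaks and 2 in BM peaks. One of them, at −32.0 kb, lay in peaks of both lists that HOMER annotated to another gene.

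Tsc22d3, which encodes the leucine zipper protein GILZ (chromosome X, 140539529 to 140600522, minus strand), is another direct target. In the spleen table it measured 20.9, 33.7 and 32.9 CPM in MPP, 24.2, 36.4 and 27.8 CPM in BFU-E, and 15, 22.3 and 17.9 CPM in CFU-E. All CFU-E libraries lay below all BFU-E libraries, and CFU-E library 2 lay above MPP library 1. The log2 fold changes of CFU-E were −0.68 against BFU-E (SE 0.28, 95% interval −1.26 to −0.09, unadjusted p = 0.0249, where 31.8% of all genes were under 0.05, edgeR adjusted p = 0.0958) and −0.66 against MPP (SE 0.28, edgeR adjusted p = 0.0867). Neither passed, and without MPP library 1 the second was −0.86 with an adjusted p of 0.0344.

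The BFU-E table gave Tsc22d3 26.2, 44.0 and 32.3 CPM in stress spleen, against 33.4, 35.8 and 55.5 CPM in BM, which overlap (−0.28 on the log2 scale with an SE of 0.42, edgeR adjusted p = 0.89). The 2 count tables kept different transcripts of this gene, the long one in the spleen table and a short one of 1968 bases in the BFU-E table, so the same stress spleen libraries carry different values in them.

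Chromatin at Tsc22d3 carried 12 peaks in each list and every one was shared, also when the overlap had to cover 50% of both peaks. With peaks at or above the median score of their list, 11 remained in stress spleen and 7 in BM. Of the 11, 4 (36.4%) were in stress spleen alone, beside 44.7% of all stress spleen peaks at that setting. Over all scores, 11 of the 12 stress spleen peaks stood at the highest score of 1000, as did 49.2% of all stress spleen peaks. The exception was the peak at −5.00 kb with 771, and the BM scores ran from 580 to 1000. The palindrome at Tsc22d3 lay 39 bases from the centre of a stress spleen peak of 840 bases and 7 bases from the centre of a BM peak of 887 bases. Both peaks were annotated as intergenic and lay beyond the 3′ end of the gene. They were 36.7 kb downstream of the start of a short transcript, which is the start given in the peak lists.

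Per1, a period gene of the circadian clock (chromosome 11, 69098956 to 69109957, plus strand), passed the test in no comparison. It measured 130, 129 and 120 CPM in MPP, 92.1, 119 and 122 CPM in BFU-E, and 114, 125 and 128 CPM in CFU-E. The groups overlapped throughout. The log2 fold changes were −0.19 for BFU-E against MPP, 0.14 for CFU-E against BFU-E and −0.05 for CFU-E against MPP, each with an SE of 0.13 to 0.14. Stress spleen BFU-E had 92.3, 121 and 125 CPM, against 120, 146 and 83.0 CPM in BM (log2 fold change −0.05, 95% interval −0.66 to 0.57).

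Of the 10 tested clock partners of Per1, 2 fell in CFU-E relative to BFU-E, beside 11.9% of all genes lower in that comparison. Per3 was at 18 ± 3.39 CPM in CFU-E and 39.4 ± 1.95 CPM in BFU-E (−1.13 on the log2 scale, edgeR adjusted p = 0.00136), and Cry1 was at 28.0 ± 3.72 CPM and 55.6 ± 8.82 CPM (−0.99, edgeR adjusted p = 0.00211). Per3 was also lower in CFU-E than in MPP by −0.94, a direction called for 16.0% of all genes. Between BFU-E and MPP none of the 10 passed, and between the BFU-E populations none of 9.

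Chromatin at Per1 held 4 peaks in stress spleen and 3 in BM. The peak over the palindrome shown above was centred at −1.78 kb in stress spleen with a score of 931, and at −1.83 kb in BM with a score of 519. The additional stress spleen peak lay at the start of a second, shorter transcript with a score of 951. Another palindrome, 0.467 kb inside the gene, lay in no peak, 385 bases from the nearest stress spleen peak and 354 from the nearest BM peak.

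The Zfp36 family encodes CCCH zinc finger proteins that bind AU-rich elements and hasten the decay of messenger RNA. Zfp36l2 (chromosome 17, 84183928 to 84187947, minus strand) has been tied to BFU-E self-renewal, as above. It measured 826, 753 and 817 CPM in MPP, 635, 685 and 778 CPM in BFU-E, and 742, 760 and 768 CPM in CFU-E. The MPP and BFU-E libraries overlapped only through BFU-E library 3, and the log2 fold change of BFU-E against MPP was −0.19 (SE 0.08, 95% interval −0.37 to −0.02, unadjusted p = 0.0327, edgeR adjusted p = 0.26). It was 0.11 for CFU-E against BFU-E (SE 0.08) and −0.08 for CFU-E against MPP (SE 0.08), and none of the 3 passed. These were the smallest standard errors among the members. Between BFU-E and MPP, an unadjusted edgeR p under 0.05 was found for 15.8% of all genes.

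In the BFU-E pair Zfp36l2 had 644, 696 and 792 CPM in stress spleen, against 824, 966 and 508 CPM in BM (log2 fold change −0.11, SE 0.23, 95% interval −0.64 to 0.43, edgeR adjusted p = 0.92). The BM libraries again enclosed the stress spleen libraries. The genes closest to Zfp36l2 in pattern over the 9 spleen libraries were Fxr1, Ddx23, Smc1a, Ice1 and Asxl1, with root mean square differences of 0.0673 to 0.0783 on the log2 scale, beside a spread of 0.112 of Zfp36l2 itself. Their own log2 fold changes were −0.26 to −0.18 for BFU-E against MPP and 0.04 to 0.21 for CFU-E against BFU-E. These genes were picked for likeness over the same libraries, so fold changes near those of Zfp36l2 follow from the choice.

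Zfp36l1 (chromosome 12, 80107760 to 80113013, minus strand) was the family member called between stages. It measured 42.1, 36.1 and 64.9 CPM in MPP, 83.3, 83.0 and 80.7 CPM in stress spleen BFU-E, and 77, 111 and 61.4 CPM in CFU-E. The BFU-E libraries were within 3 CPM of each other and all above the MPP libraries, while the CFU-E libraries reached down to overlap MPP library 3. Zfp36l1 was higher in BFU-E than in MPP by 0.79 on the log2 scale (SE 0.22, 95% interval 0.33 to 1.25, edgeR adjusted p = 0.048), the 1 member of 9 called in that comparison, where 4.13% of all genes were called, 2.03% as higher and 2.11% as lower. It was also the 1 member whose groups did not overlap there, beside 21.4% of all genes. It was higher in CFU-E than in MPP by 0.80 (SE 0.22, edgeR adjusted p = 0.00899), and the difference between CFU-E and BFU-E was 0.02 (SE 0.22, 95% interval −0.43 to 0.47). Leaving out any 1 BFU-E library or MPP library 1 or 2 gave adjusted p values of 0.125 to 0.149 for BFU-E against MPP at log2 fold changes of 0.63 to 0.80, and 0.0107 without MPP library 3. Without CFU-E library 2 the difference between CFU-E and MPP was 0.54 with an adjusted p of 0.0862.

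Against BM, stress spleen BFU-E had 84.3, 84.4 and 82.2 CPM of Zfp36l1, where BM BFU-E had 58.2, 109 and 8.11 CPM. The BM libraries spread more than 10-fold, and the library at 8.11 CPM is the one in which 15.3% of genes had no count. The log2 fold change was 0.51 (SE 0.72, 95% interval −1.16 to 2.19), which did not pass. It was 0.00379 without BM library 3 and 1.34 without BM library 2. Whether the share of genes without counts has a part in that low value was not tested.

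Zfp36, which encodes tristetraprolin (chromosome 7, 28376784 to 28379228, minus strand), measured 211, 217 and 188 CPM in MPP, 154, 222 and 179 CPM in BFU-E, and 188, 259 and 150 CPM in CFU-E. The groups overlapped throughout, and the log2 fold changes were −0.15 for BFU-E against MPP, 0.10 for CFU-E against BFU-E and −0.05 for CFU-E against MPP, with SEs of 0.16. Stress spleen BFU-E had 156, 226 and 182 CPM, against 207, 252 and 284 CPM in BM (log2 fold change −0.40, SE 0.20, 95% interval −0.87 to 0.07, edgeR adjusted p = 0.59).

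Of 10 other tested proteins that act on AU-rich elements, 1 rose between CFU-E and BFU-E, beside 9.17% of all genes, the endonuclease gene Zc3h12a (47.4 ± 9.99 CPM in CFU-E and 27.9 ± 4.65 CPM in BFU-E, 0.76 on the log2 scale, edgeR adjusted p = 0.0272). One rose between CFU-E and MPP, beside 12.7% of all genes, Elavl1, which encodes the stabilising protein HuR (0.46 on the log2 scale, edgeR adjusted p = 0.0207). None passed between BFU-E and MPP or between the BFU-E populations.

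In chromatin, Zfp36 carried 4 peaks in each list, all shared and all within 4 kb of its start. Zfp36l1 carried 6 peaks in stress spleen and 3 in BM, with the 3 unshared ones at −2.59, 3.86 and 52.0 kb and scores of 1000, 780 and 437. At Zfp36l2, 12 peaks in stress spleen faced 6 in BM, and the 6 unshared ones lay between −79.9 and 50.9 kb with scores of 620 to 962. No palindrome near Zfp36l1 or Zfp36l2 lay in a peak, and none was found within 50 kb of Zfp36.

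**Figure D2:**
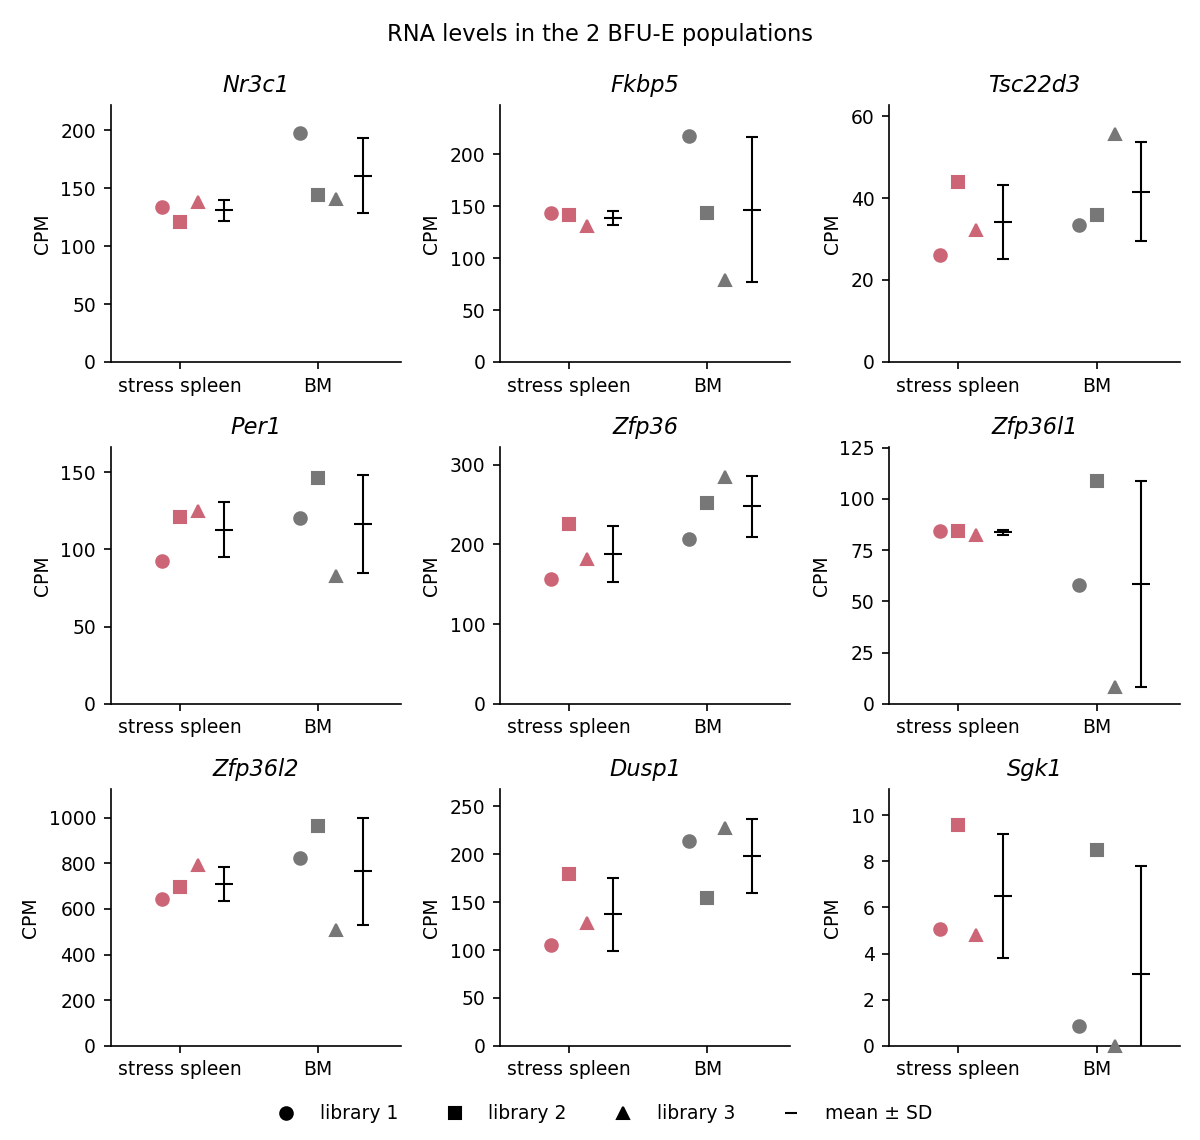
CPM of each of the 9 genes in the 3 libraries of stress spleen BFU-E (left) and BM BFU-E (right), with marker shape for the library number and the mean ± SD beside each group; each panel has its own axis from 0, where the lower SD bar of Sgk1 in BM is cut off. The BM libraries spread more widely for most genes, from 8.11 to 109 CPM for Zfp36l1 beside 82.2 to 84.4 CPM in stress spleen.

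Dusp1 and Sgk1 encode signalling enzymes. DUSP1 is a phosphatase that switches off the p38 and JNK kinases (chromosome 17, 26505591 to 26508472, minus strand), and its gene is also an immediate early gene. It measured 99.5, 155 and 96.2 CPM in MPP, 103, 176 and 126 CPM in BFU-E, and 131, 257 and 126 CPM in CFU-E. In each population library 2 was the highest, and the populations overlapped. The log2 fold change of CFU-E against MPP was 0.56 (SE 0.24, unadjusted p = 0.0302, edgeR adjusted p = 0.0889), which did not pass, and without CFU-E library 2 it was 0.14. An unadjusted p under 0.05 was found for 38.3% of all genes in that comparison. The difference was called without CFU-E library 1, without CFU-E library 3, without MPP library 2 and without the filter on low counts, with log2 fold changes of 0.58 to 0.81. It was also called with the replicate number as a block in the fit, while DESeq2 gave 0.56 with an adjusted p of 0.28.

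Stress spleen BFU-E had 105, 179 and 128 CPM of Dusp1, against 214, 154 and 227 CPM in BM. Stress spleen library 2 lay above BM library 2, so the groups overlapped (log2 fold change −0.53, SE 0.26, 95% interval −1.12 to 0.06, unadjusted p = 0.0711, edgeR adjusted p = 0.55). Summed immediate early genes, 15 in this table, were at 2480 to 3250 CPM in stress spleen and 3490 to 4490 CPM in BM, and their part in the Dusp1 values was not tested. Within the dual-specificity phosphatases, 8 others were tested and 1 fell between CFU-E and BFU-E, beside 11.9% of all genes. It was Dusp3, at 1.63 ± 0.311 CPM in CFU-E and 75.3 ± 3.88 CPM in BFU-E (−5.53 on the log2 scale, edgeR adjusted p = 1.32e-12). Against MPP, 3 of the 8 were lower in CFU-E, beside 16.0% of all genes. They were Dusp3, Dusp4 and Dusp2, by −5.17, −2.53 and −0.91.

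At Dusp1 both lists held a promoter peak and a peak near 5.2 kb downstream of the start. Stress spleen added 2 peaks, at 10.8 and 41.4 kb, with scores of 479 and 499. Within 50 kb lay 5 palindromes, none of them in a peak. The nearest to a peak, at −1.02 kb, was 164 bases from a stress spleen peak and 252 from a BM peak.

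Sgk1, a serine kinase induced by glucocorticoids and mineralocorticoids (chromosome 10, 21994666 to 21999902, plus strand), had few reads. Its counts were 86, 46 and 24 in MPP, 67, 102 and 60 in BFU-E, and 37, 54 and 65 in CFU-E, or 6.67, 7.95 and 3.10 CPM, 5.01, 9.41 and 4.72 CPM, and 2.87, 4.57 and 6.61 CPM. All 3 populations overlapped, and the log2 fold changes of −0.45 to 0.11 had SEs of 0.60 to 0.61. Their 95% intervals lay within −1.71 to 1.37 and each held values of both signs, so no direction was resolved at this depth. Stress spleen BFU-E had 5.08, 9.58 and 4.81 CPM, against 0.868, 8.51 and 0 CPM in BM, from 8, 68 and 0 counts. The log2 fold change of 1.05 (SE 1.81, 95% interval −3.13 to 5.22) leaves both directions within its error. It was 3.84 without BM library 2, 0.67 without stress spleen library 2, 0.62 without BM library 1 and 0.47 without BM library 3, and none of these passed.

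Of 8 tested genes that act beside Sgk1, none passed between CFU-E and BFU-E, between BFU-E and MPP or between the BFU-E populations. Against MPP, CFU-E were higher in Foxo3, a transcription factor that SGK1 and AKT inactivate (157 ± 2.6 CPM in CFU-E and 95.6 ± 7.13 CPM in MPP, log2 fold change 0.72, edgeR adjusted p = 0.000194) and in Akt2 (0.53), and lower in Sgk3 (−0.97) and Akt1 (−0.39). In that comparison 12.7% of all genes were higher and 16.0% lower.

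Chromatin at Sgk1 carried 9 peaks in stress spleen and 3 in BM. The 3 BM peaks were all shared, among them the promoter peak with a score of 1000 in both lists. Of the 6 in stress spleen alone, 4 lay between −60.8 and −4.07 kb of the nearest annotated start, 1 lay at 15.8 kb, and 1, of 260 bases with a score of 850, lay at −0.669 kb from the start of another transcript. The Sgk1 palindrome shown above fell in the gap between that stress spleen peak and the promoter peak, 201 bases from the nearest stress spleen peak and 182 from the nearest BM peak, at −0.958 kb from the start of the counted transcript. It was also the 1 match among 15 member promoters (short windows at annotated starts, from RefSeq, GRCm38.p6, which cover 7 of the 9 genes) to the stricter half-sites AGAACA and TGTTCT, which 3 of all 32851 promoters held. The looser palindrome was in 156 of those promoters (0.475%).

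**Figure D3:**
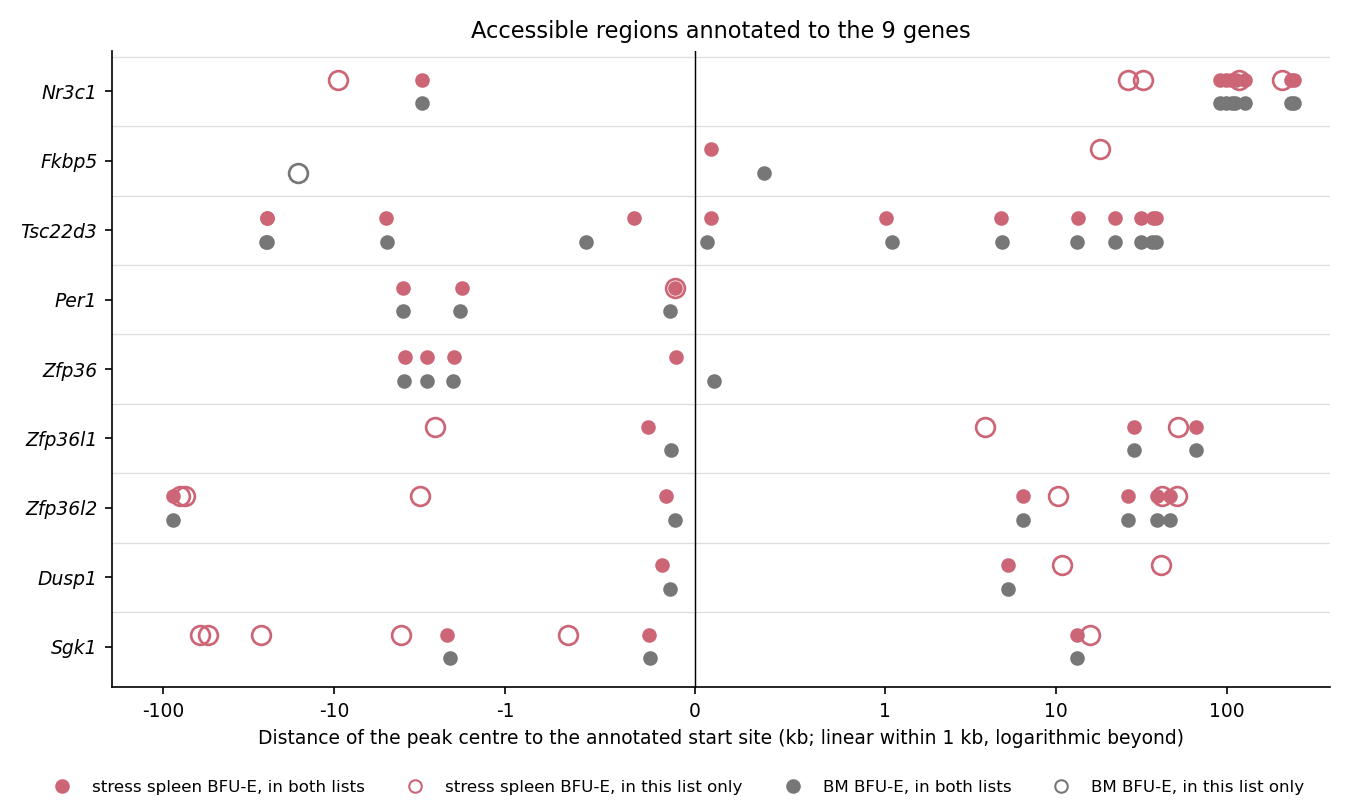
Peaks annotated to each gene, by the distance of the peak centre from the annotated start site (kb, linear within 1 kb and logarithmic beyond), with stress spleen BFU-E above BM BFU-E in each row; filled circles are peaks shared by at least 1 base and open circles are peaks in 1 list. Tsc22d3 and Zfp36 have no open circle, and Sgk1 has 6 in stress spleen.

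Over the 9 genes, 24 of 66 stress spleen peaks (36.4%) had no BM counterpart, beside 45.0% of all stress spleen peaks, and 1 of 43 BM peaks (2.33%) had no stress spleen counterpart, beside 4.52% of all. The stress spleen list is the longer one by 1.75 times over all genes and by 1.53 times for the members, and with 1 merged list per population and no depth in the files, peak numbers carry no replicate error and no test. Within 100 bases of a peak centre, the palindrome was found in 2 of 66 member peaks in stress spleen (3.03%) and 2 of 43 in BM (4.65%), which are the same Per1 and Tsc22d3 sites, beside 0.337% and 0.353% of all peaks. Within 50 kb of the starts of the transcripts in the spleen table, 25 palindromes were found, of which 3 lay in stress spleen peaks and 3 in BM peaks. That tally leaves out the Tsc22d3 site, which is 36.7 kb from the start given in the peak lists but farther from the start of the long transcript. Across the genome the shares in peaks were 1.63% for stress spleen and 1.08% for BM, of 44933. These shares cover all sequence and not only windows around gene starts, and no share for windows around other genes was computed.

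Levels of different genes can be set side by side per length. In RPKM, Zfp36l2 had the highest mean in every population, at 125 ± 12.7 in MPP, 108 ± 10.7 in stress spleen BFU-E, 116 ± 6.81 in CFU-E and 115 ± 33.8 in BM BFU-E (SD, n = 3 each). In BM library 3 it was below Zfp36, at 77.2 against 86.3 RPKM. Zfp36 followed at 64.6 ± 6.21, 57.1 ± 8.38, 61.4 ± 19.2 and 74.6 ± 11.6, and Dusp1 at 33.2 ± 8.04, 37.8 ± 8.91, 48.0 ± 21.7 and 54.5 ± 11.4 in the same order of populations. Zfp36 and Dusp1 overlapped in CFU-E, where Dusp1 library 2 reached 72.8. Fkbp5 stood at 22.2 ± 2.34, 19.2 ± 1.32, 17.1 ± 2.02 and 20.1 ± 9.62. In MPP the next in order were Per1, Nr3c1, Zfp36l1 and Tsc22d3 at 15.2, 10.9, 8.85 and 8.05, with neighbours within their spread except for Per1 above Nr3c1. In CFU-E Nr3c1 was at 19.4 ± 3.99, level with Fkbp5 within the spread, while Tsc22d3 was at 4.33 ± 0.837. These Tsc22d3 levels are of a transcript of 1786 bases, which neither count table kept. Sgk1 had the lowest mean in all 4 populations, at 1.34 ± 0.566, 1.41 ± 0.529, 1.02 ± 0.334 and 0.668 ± 0.997.

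The choice of table changes the BM levels of several members by a large factor. In the table of 12 libraries the BM means were 354 RPKM for Dusp1, 403 for Zfp36, 109 for Tsc22d3 and 12.7 for Sgk1, which are 6.5, 5.4, 9.73 and 19 times those of the table of 6. For Tsc22d3 the tables of 12 and of 6 also hold different transcripts, of 1786 and 1968 bases. Per1 was lower in the table of 12, at 1.85 against 13.3 RPKM. Nr3c1 was at 19.0 against 13.5 RPKM and Zfp36l2 at 149 against 115. The columns of stress spleen BFU-E correlated at 1 between both tables across 24072 genes. The cause was not tested, and no comparison here uses the BM columns of the table of 12.

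Over the BFU-E pair, 0 of the 9 genes were called by edgeR, beside 0.112% of all 10702 genes. DESeq2 also called 0 of the 9, beside 685 of all genes. With such small shares, 0 of 9 says little about the members. An unadjusted edgeR p under 0.05 was found for 0 of the 9 and for 9.84% of all genes. The median log2 fold change of the 9 was −0.11, with 2 above 0 and 7 below, against 0.01 over all genes. Of 17 further glucocorticoid targets known from other cells, none passed in this pair either, with 5 above 0, 12 below and a median of −0.55. The spleen stages called 1 member between BFU-E and MPP, 1 between CFU-E and BFU-E, and 3 between CFU-E and MPP (2 higher and 1 lower). Of all genes, 4.13%, 21.1% and 28.8% were called in these comparisons, the last as 12.7% higher and 16.0% lower. With 9 members, counts this small cannot place the members above or below these shares, and that was not tested. Comparisons of the stages share libraries, so these counts are not independent.

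**Figure D4:**
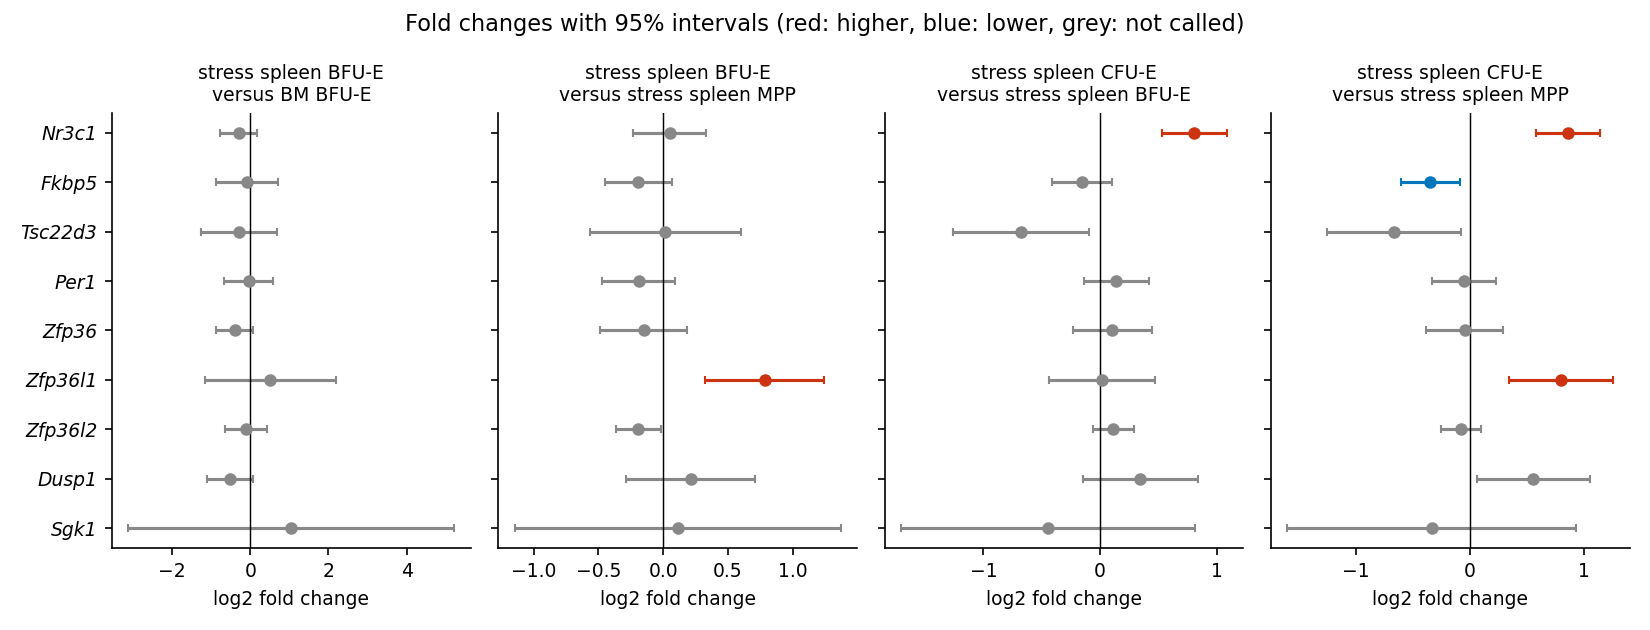
Log2 fold changes (x axis) of the 9 genes with 95% intervals in the 4 comparisons, named above each panel as the first population versus the second; each panel has its own x axis. Red marks genes higher and blue genes lower at an adjusted p under 0.05, and Nr3c1 is at 0.81 and 0.86 in the CFU-E panels.

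Other targets known in other cells moved in both directions between CFU-E and BFU-E: of 18 tested, 7 rose, 3 fell and 8 did not pass, with a median log2 fold change of 0.09. Of all genes, 9.17% were higher and 11.9% lower in that comparison. Mt2, a metallothionein, was at 75.9 ± 10.2 CPM in CFU-E and 3.29 ± 1.69 CPM in BFU-E (4.52 on the log2 scale, edgeR adjusted p = 2.28e-07), and Mt1 at 221 ± 28.7 CPM and 51.1 ± 10.6 CPM (2.12, edgeR adjusted p = 5.74e-08). Hif3a was at 36.3 ± 7.17 CPM in CFU-E and 3.09 ± 2.57 CPM in BFU-E (3.54, edgeR adjusted p = 0.00171). Between BFU-E and MPP 1 of 18 passed, Rgs2, at 19.0 ± 6.79 CPM in BFU-E and 42.7 ± 8.02 CPM in MPP, beside 2.11% of all genes lower.

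A pattern by library number ran through some of the members. In all 3 spleen populations library 2 was the highest of the 3 for Tsc22d3, Zfp36 and Dusp1, which is 3 of 9 members beside 4.06% of the 10166 genes tested. In MPP the margin was narrow for Tsc22d3 (33.7 CPM against 32.9 in library 3) and Zfp36 (217 CPM against 211 in library 1). For Dusp1, library 2 stood at 155, 176 and 257 CPM in MPP, BFU-E and CFU-E, and no other library exceeded 131 CPM. Of 15 immediate early genes, which cell handling also induces, 6 also had library 2 highest in all 3 (Fos, Fosb, Jun, Atf3, Klf2 and Klf6). Nr3c1 did not follow it, being highest in library 2 of MPP and lowest in library 2 of BFU-E and CFU-E. The labels give the number no meaning beyond naming the sample, and the part of handling in these values was not tested.

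**Figure D5:**
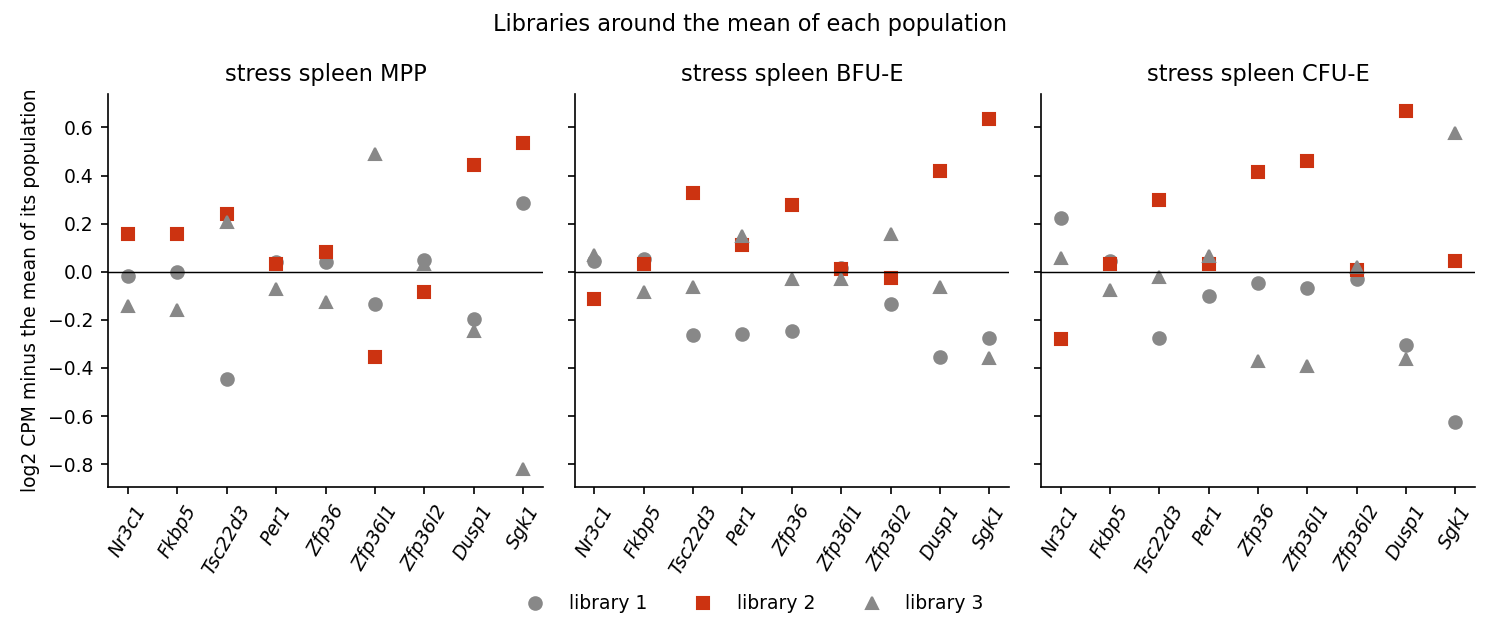
Log2 CPM of each library minus the mean of its population, for the 9 genes in the MPP, BFU-E and CFU-E of stress spleen; red squares are library 2, grey circles library 1 and grey triangles library 3. Red squares are on top for Tsc22d3, Zfp36 and Dusp1 in all 3 panels.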

How the data were processed

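RNA was measured in 12 libraries and accessible chromatin in 6. Per the labels' protocols, RNA libraries were made with a stranded SMARTer Pico kit for total RNA and ATAC libraries with Nextera transposomes. The submitters' processing notes name STAR 2.6.0b-1, Bowtie2 2.3.4.2, HOMER 4.8, DESeq2 and mm10. Per the file headers, HOMER counted reads in exons and condensed each gene to 1 transcript. Which strand was counted and which program called peaks are not given in the sources used here. The deposited values are raw counts per gene (the BFU-E table kept by the authors at a mean of 50 tags), RPKM in tables of 12 and of 6 libraries, and a peak score per merged peak list. One BM column of the deposited RPKM table of 6 has an incomplete name and was used without a number. Repeated entries of a peak, 117426 and 76147 as deposited for stress spleen and BM, were merged by interval.

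Counts were fitted with edgeR 4.0.16 (quasi-likelihood F test, TMM factors, Benjamini-Hochberg adjustment over all genes, threshold 0.05) in R 4.3.3, with 1 fit of the 9 spleen libraries (genes with a mean of at least 50 counts, 10166) and 1 of the 6 BFU-E libraries. Intervals are 95%, from the fitted SE. Alternatives were RLE factors, DESeq2 1.42.0, a replicate block, other filters, no non-coding RNA, the pair alone, and leaving out each library. Peaks sharing at least 1 base counted as shared, and pysam 0.24.0 and Python 3.11.15 searched motifs in GRCm38.p6. The members, lists and tests were chosen with earlier results of these data known. Genes other than the members are named as the called genes of those lists with the largest changes, at most 3 per list and comparison, or as the 5 closest patterns; Akt1 and the genes sharing the library 2 order were singled out after their values were seen.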

Additional observations from a re-analysis of the deposited data

How the results depend on the processing

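Of 432 values of the members under 20 alternative settings, 395 kept their direction and side of the threshold, 18 changed sign, 13 lost a call and 6 gained one. Nr3c1 stayed called in CFU-E under all 12 alternatives, at 0.69 to 0.94 against BFU-E and 0.75 to 0.99 against MPP on the log2 scale. Members called between stress spleen and BM BFU-E stayed at 0 and between CFU-E and BFU-E at 1. Leaving out 1 library gave 0 to 1 members between BFU-E and MPP and 1 to 3 between CFU-E and MPP (1 without CFU-E library 2). All genes called between stress spleen and BM BFU-E, 12 in edgeR, were 685 with DESeq2 (local dispersion trend), 579 with its mean trend (chosen after seeing the data) and 0 to 27 without 1 library (0 without stress spleen library 2 or 3, 27 without BM library 3). Between BFU-E and MPP, 420 became 668 without a filter and 225 to 332 without 1 library. With scores at or above each list's median, the members had 36 peaks in stress spleen and 25 in BM, with 25 shared. There were 11 in stress spleen alone (30.6%, beside 44.7% of all peaks) and 0 in BM alone (beside 3.56% of all). The cause was not tested.

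None of the sign changes involved a called value. Without 1 library, log2 fold changes against BM ran from −0.378 to 0.329 for Fkbp5, −0.234 to 0.158 for Per1 and −0.329 to 0.099 for Zfp36l2. For BFU-E against MPP they ran from −0.0123 to 0.133 for Nr3c1, −0.18 to 0.142 for Tsc22d3, −0.022 to 0.464 for Dusp1 and −0.275 to 0.372 for Sgk1. For CFU-E against BFU-E they ran from −0.132 to 0.275 for Zfp36, −0.248 to 0.195 for Zfp36l1 and −0.071 to 0.579 for Dusp1, and for CFU-E against MPP from −0.0841 to 0.00308 for Per1 and −0.282 to 0.123 for Zfp36.

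The labels do not say whether the replicate numbers pair the samples. Same-numbered libraries deviated together at correlations of −0.0337 to −0.022 between stress spleen and BM BFU-E and of 0.0155 to 0.134 within the spleen. Differently numbered spleen libraries ran from −0.093 to 0.0299. Not every library correlated best with its own number, as library 2 of CFU-E was at 0.0155 with MPP library 2 and 0.0254 with MPP library 3. With the replicate block, 3 genes were called between stress spleen and BM BFU-E, Fkbp5, Zfp36l1 and Sgk1 were at 0.0321, 1.06 and 2.8 there, and Dusp1 was called between CFU-E and MPP (0.51, edgeR adjusted p = 0.00554), which made 4 members. Depth limits Sgk1 most, with 24 to 102 counts in spleen libraries and 0 to 68 in BM.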

Other observations

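Other motifs were counted in the members' peaks within 100 bases of the centre, on both strands. The GATA motif AGATAA was in 11 of 66 stress spleen peaks (16.7%), beside 11.5% of all stress spleen peaks. The AP-1 motif was in 5 of 66 (7.58%), beside 7.84%, and the E-box CACGTG was in 4 of 66 (6.06%), beside 3.98%. In BM the GATA motif was in 7 of 43 (16.3%), beside 9.49% of all BM peaks, AP-1 in 6 of 43 (14.0%), beside 6.91%, and the E-box in 5 of 43 (11.6%), beside 4.34%. Among the 15 member promoters, 4 held the E-box, 1 AP-1 and 2 GATA, where 7.15%, 7.81% and 11.2% of all promoters did. None of these shares was tested.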
